A study of Mus musculus with 24 samples.

Results

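The p53 target genes read here were 10 genes named by symbol: Trp53, which encodes p53 itself, and Mdm2, Cdkn1a, Ccng1, Trp53inp1, Sesn1, Sesn2, Bbc3, Pmaip1 and Phlda3. A gene was measured through the probe sets of a mouse Affymetrix array that carry its symbol and no other. This gave 19 probe sets for 9 of the 10 genes, out of 34945 such probe sets for 18193 genes. Trp53 had no probe set of that kind in the table used and was not analysed here. The RNA came from CD4+ T cells of C57BL/6 mice carrying the 2D2 TCR transgene, a T-cell receptor against a myelin antigen that all groups shared. The cells were primed for 48 h on plates coated with antibodies to CD3 and CD28 under Th1 conditions and then expanded off the plates for 2 days. They were grown with DMSO (the vehicle), with Control-768, or with I-BET-762 at 0.25 µM or 0.5 µM. In which culture steps the compound was present is not stated here. Effects of a compound still present at harvest and effects lasting from priming were therefore not told apart. RNA was taken from resting cells, or from activated cells that had spent another 4 h on the coated plates. The 2 states and 4 compounds gave 8 groups of 3 arrays, 24 in all. I-BET-762 is a small molecule that occupies the bromodomains of the BET proteins and keeps them from acetylated histones. Control-768 is the study's control compound, and the labels do not state at what concentration it was used, so the comparisons with it are not known to be dose-matched. The labels give neither the age nor the sex of the mice, nor whether animals were pooled. The submitters call the 3 arrays of a group biological replicates, and p-values measure the spread between these arrays.

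p53 is a transcription factor that is kept scarce by continuous degradation and accumulates after DNA damage and other stress. Its targets fall into a few roles: Mdm2 encodes the ubiquitin ligase that degrades p53, Cdkn1a encodes the cyclin-dependent kinase inhibitor p21, the sestrins restrain the growth kinase complex mTORC1, and Bbc3 and Pmaip1 encode the pro-death BH3-only proteins Puma and Noxa. Several of them are also controlled by other factors, such as FOXO proteins in quiescent lymphocytes, and in T cells p53 is known as a brake on proliferation.

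The cells carried the markers of their label: 7 of 8 listed T-cell markers were measured, and their summed intensity was 28381 to 39029 per array. All 4 measured B-cell markers, both measured NK-cell markers and both measured erythroid markers had mean intensities under 64. Of the 5 myeloid markers 4 did. The CD8 T-cell markers Cd8a and Cd8b1, which CD4+ cells should lack, were both above that level and summed to 412 to 632 on resting and 530 to 957 on activated arrays. The 4 dendritic-cell markers, of which 2 were under 64, summed to 1312 to 2409 on resting and 485 to 1726 on activated arrays. On activated arrays the CD8 range lay higher and the dendritic-cell range lower, and both overlapped with the resting range. Neither sum was tested by state, and their part in the differences between states was not tested. These are bulk samples, in which fewer cells of a type and less RNA per cell cannot be told apart. Within a group the arrays correlated at 0.976 to 0.994. The readings of the 9 members were bright: the lowest was 196, for Sesn2, against array medians of 37.4 to 44.4.

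The arrays numbered 3 in the labels stood apart from those numbered 1 and 2. The spread of their genes around the group means (SD of log2 deviations) was 0.23 to 0.34, against 0.17 to 0.24 for the other arrays. The difference between 3′ and 5′ Gapdh probe sets, a sign of RNA integrity and of amplification, was 0.15 to 0.31 (log2) on the 4 activated arrays numbered 3 and -0.06 to 0.10 on all others. Its part in the values below was not tested. Results that change without these 8 arrays are given both ways.

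Promoter sequences from RefSeq (mouse build GRCm38.p6) gave 12 windows for 8 of the 10 genes. Each runs from 250 bases before to 50 after an annotated transcription start. Trp53inp1 and Pmaip1 had no window here. Windows of the members were filtered by chromosome and those of all genes were not, so these counts may fall short of what RefSeq covers. The missing windows are therefore not evidence that these genes lack a half-site. The 12 windows were searched for the p53 half-site, a 10-base consensus that reads the same on both strands. A half-site was present in 5 of the 12 windows, those of Cdkn1a, Mdm2, Ccng1, Sesn1 and the unmeasured Trp53, and in 8.36% of all 32851 windows of 300 bases. The windows of the 4 measured genes follow, because these genes went different ways on restimulation. Half-sites are in capitals, and each line is the gene's sense strand, 5′ to 3′.
Cdkn1a, chr17:29090729-29091028, plus strand: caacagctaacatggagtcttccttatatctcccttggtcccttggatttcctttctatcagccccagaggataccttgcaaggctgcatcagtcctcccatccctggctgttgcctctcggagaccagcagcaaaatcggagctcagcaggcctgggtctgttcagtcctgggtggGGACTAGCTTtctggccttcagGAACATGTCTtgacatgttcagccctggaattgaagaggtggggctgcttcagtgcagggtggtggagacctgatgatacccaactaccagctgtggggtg
Mdm2, chr10:117710709-117711008, minus strand: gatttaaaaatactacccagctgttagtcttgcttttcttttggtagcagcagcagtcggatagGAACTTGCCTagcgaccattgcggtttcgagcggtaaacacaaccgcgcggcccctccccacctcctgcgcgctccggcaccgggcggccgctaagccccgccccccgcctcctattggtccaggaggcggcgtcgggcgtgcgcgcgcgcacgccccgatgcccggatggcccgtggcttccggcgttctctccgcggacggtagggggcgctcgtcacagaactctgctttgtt
Ccng1, chr11:40755237-40755536, minus strand: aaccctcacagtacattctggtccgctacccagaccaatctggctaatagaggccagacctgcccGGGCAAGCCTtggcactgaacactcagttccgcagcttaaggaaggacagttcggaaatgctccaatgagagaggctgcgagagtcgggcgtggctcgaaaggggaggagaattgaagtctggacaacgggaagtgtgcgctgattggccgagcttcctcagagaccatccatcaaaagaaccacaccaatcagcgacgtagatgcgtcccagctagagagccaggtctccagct
Sesn1, chr10:41887189-41887488, plus strand: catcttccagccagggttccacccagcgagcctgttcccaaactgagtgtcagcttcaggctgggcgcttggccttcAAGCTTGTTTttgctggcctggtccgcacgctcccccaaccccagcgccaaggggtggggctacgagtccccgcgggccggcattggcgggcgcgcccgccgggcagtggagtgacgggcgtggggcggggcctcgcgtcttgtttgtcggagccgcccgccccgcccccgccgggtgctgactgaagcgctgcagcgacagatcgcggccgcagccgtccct
The Cdkn1a window shown held a pair of half-sites, beginning 73 and 51 bases before its start. The other Cdkn1a window, chr17:29093519-29093818, lies downstream of it and held none. A pair with at most 13 bases between its sites was found in 24 of all windows (0.0731%). The half-site of Mdm2 began 186 bases before its start, that of Ccng1 185 and that of Sesn1 173. The other annotated starts of Cdkn1a and Sesn1 and the windows of Sesn2, Bbc3 and Phlda3 held no match. A match of letters is not evidence of binding.

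Restimulation for 4 h split the members. In cells grown with Control-768, Sesn1 fell 2.49-fold, Trp53inp1 fell 1.45-fold and Mdm2 rose 1.56-fold, while the other 6 of the 9 measured members did not pass the test. These 3 calls compare with 20.1% of all 18193 genes tested in that comparison. The members' median log2 difference was -0.23, and that of all genes -0.03. DMSO gave calls for the same 3 members, against 20.9% of all genes. With 0.25 µM I-BET-762 Mdm2 and Sesn1 were called, 2 of 9 against 14.5% of all genes. With 0.5 µM the same 2 were called, against 23.3%.

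**Figure D1:**
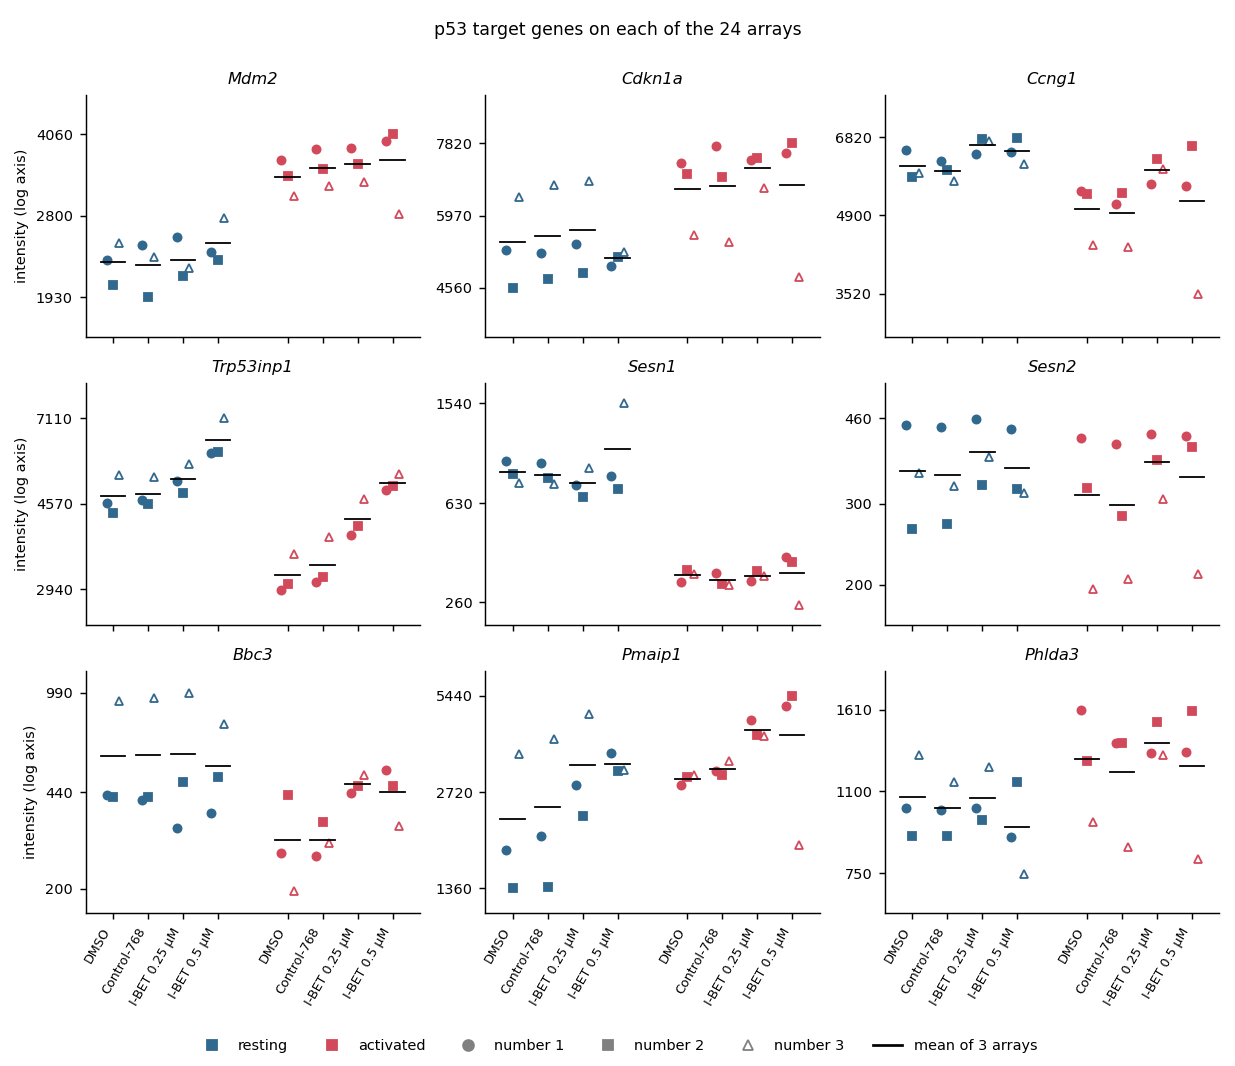
Intensity (log axis) of the brightest probe set of each of the 9 measured p53 target genes on all 24 arrays, by compound, with resting cells in blue, activated cells in red, one symbol for each replicate number and a bar at the mean of 3 arrays. Resting and activated arrays separate without overlap for Mdm2 and Sesn1, Trp53inp1 lies higher with 0.5 µM I-BET-762 in both states, and the open triangles (number 3) lie apart for Cdkn1a, Bbc3, Pmaip1 and Phlda3.

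Sesn1, a stress-induced restraint on mTORC1, had the largest difference of the 9. With Control-768 it read 902, 788 and 752 on the resting arrays numbered 1, 2 and 3 (814 ± 78.3, SD, n = 3) and 337, 307 and 305 on the activated ones (316 ± 18.1). With DMSO the resting values were 923, 820 and 759 and the activated values 312, 347 and 334. Every activated array lay far below every resting one. Over all 4 compounds the 12 resting arrays ran from 665 to 1545, with a median of 797, and the 12 activated arrays from 255 to 390, with a median of 332. The log2 difference was -1.32 ± 0.20 (SE) with Control-768 (adjusted p = 0.000176), -1.29 with DMSO, -1.15 with 0.25 µM and -1.49 with 0.5 µM I-BET-762. The value of 1545 was the resting 0.5 µM array numbered 3, while the other arrays of that group read 806 and 714. Of the 4 Sesn1 probe sets 3 fell alike with Control-768, by 1.32, 1.29 and 1.35 on the log2 scale. The fourth, dim at a mean intensity of 58.8, went the other way, at 0.36 (adjusted p = 0.0864 over all probe sets). Averaged over the 4 compounds this probe set rose by 0.31 and passed the test (adjusted p = 0.00122).

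Its relative Sesn2, which shares that role, did not follow it. With Control-768 Sesn2 read 440, 271 and 327 in resting and 405, 282 and 206 in activated cells, and the ranges overlapped. The difference was -0.23 (95% interval -0.84 to 0.38, adjusted p = 0.667). Over the 12 arrays of each state the medians were 340 and 349.

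Mdm2, the feedback inhibitor of p53, was higher after restimulation under every compound. With Control-768 the resting arrays read 2447, 1930 and 2322 and the activated arrays 3791, 3462 and 3202. With DMSO they read 2283, 2042 and 2467 against 3619, 3352 and 3068. The highest of the 12 resting arrays was 2767 and the lowest of the 12 activated arrays 2821, so the states did not overlap. The log2 difference was 0.64 ± 0.14 (SE) with Control-768 (adjusted p = 0.00286) and 0.56, 0.63 and 0.53 with DMSO and the lower and higher concentration of I-BET-762. A second Mdm2 probe set rose by 1.03 with Control-768 (adjusted p = 0.00158 over all probe sets). The remaining one, at a mean intensity of 11, read 0.31 (adjusted p = 0.27). At 0.5 µM the call for Mdm2 was lost when only the 2 groups compared were fitted (adjusted p = 0.126).

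Trp53inp1, a stress protein that takes part in autophagy and in the activation of p53, fell. With Control-768 it read 4650, 4560 and 5248 in resting and 3051, 3129 and 3845 in activated cells, without overlap. With DMSO it read 4600, 4351 and 5315 against 2937, 3021 and 3521, again without overlap. The log2 difference was -0.53 ± 0.12 (SE) with Control-768 (adjusted p = 0.00395) and -0.59 with DMSO. In cells grown with I-BET-762 it was -0.30 at 0.25 µM (adjusted p = 0.106) and -0.32 at 0.5 µM (adjusted p = 0.0683), neither past the threshold. These calls depended on the processing: Trp53inp1 passed at 0.5 µM in 9 of 20 alternatives (lowest adjusted p 0.00188) and at 0.25 µM in 5 of 20 (lowest 0.00379), always as a fall. The test of whether these state effects differ from the one with Control-768 is given with the interactions further on. The second, dimmer Trp53inp1 probe set read -0.78 with Control-768 (adjusted p = 0.333 over all probe sets), and the mean of the pair -0.65 (adjusted p = 0.133), so the call rests on the brighter probe set.

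**Figure D2:**
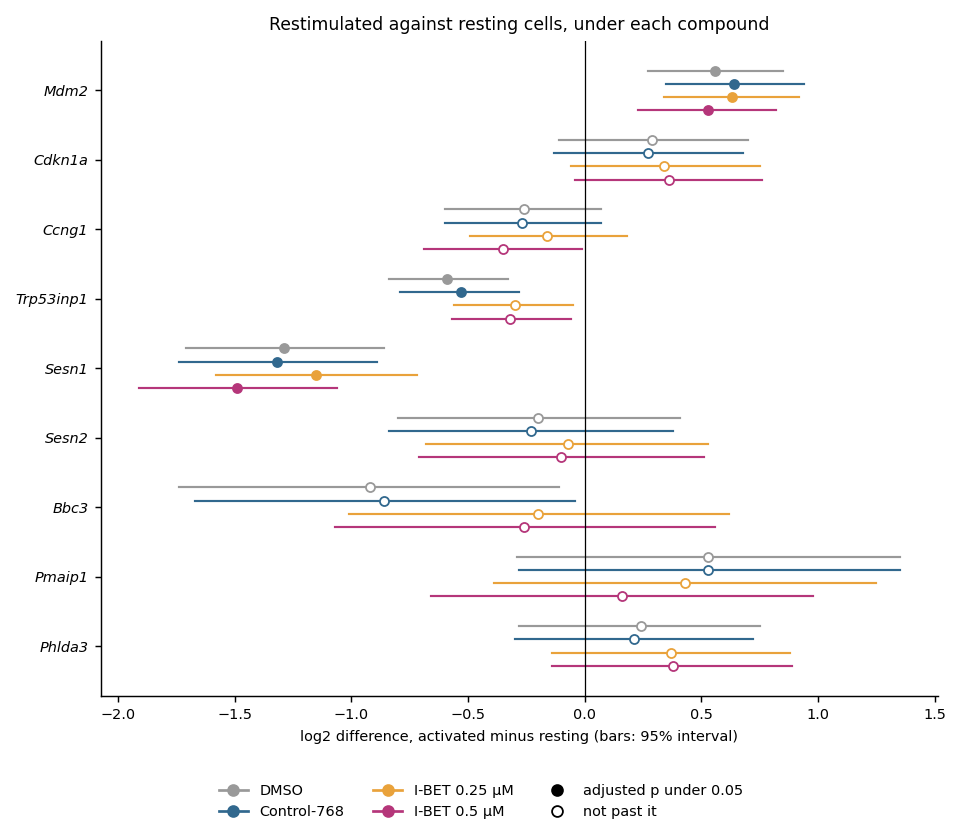
Difference between activated and resting cells for each member (log2, with its 95% interval) under each of the 4 compounds, filled where the adjusted p is under 0.05. Sesn1 lies left of -1 and Mdm2 right of 0.5 under every compound, while the intervals of Sesn2 and Pmaip1 cross 0 under all 4.

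The cell-cycle members gave less clear differences. Cdkn1a, which encodes p21, read 5189, 4715 and 6697 in resting and 7738, 6902 and 5403 in activated cells with Control-768. The arrays numbered 1 and 2 were higher when activated, and the array numbered 3 was lower. Cdkn1a kept this pattern under all 4 compounds: averaged over them, activated minus resting was 0.53 among arrays numbered 1, 0.60 among those numbered 2 and -0.17 among those numbered 3. Its resting array numbered 3 read 6403, 6697 and 6789 with DMSO, Control-768 and 0.25 µM, and 5223 at 0.5 µM, the highest of its group each time. The Control-768 difference over 3 arrays a group was 0.27 ± 0.19 (SE, adjusted p = 0.381), and the second Cdkn1a probe set gave 0.32 (adjusted p = 0.366). Ccng1, cyclin G1, which works with the phosphatase PP2A upon Mdm2, read 6184, 5940 and 5660 in resting and 5149, 5394 and 4294 in activated cells. The ranges did not overlap, but the difference of -0.27 did not pass the test (adjusted p = 0.286).

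The death genes were the most variable. Bbc3 read 413, 424 and 953 in resting and 261, 344 and 292 in activated cells with Control-768, without overlap, at -0.86 ± 0.39 (SE, adjusted p = 0.139). Its resting arrays numbered 3 read 770 to 989 over the 4 compounds, above every other resting array (330 to 497). Pmaip1 read 1988, 1371 and 3981 in resting and 3176, 3075 and 3395 in activated cells. Here too the resting array numbered 3 was the highest, and the states overlapped, at 0.53 ± 0.39 (adjusted p = 0.397). Phlda3, whose protein competes with the kinase Akt for membrane lipids, read 1008, 893 and 1148 in resting and 1376, 1380 and 850 in activated cells, at 0.21 ± 0.24 (adjusted p = 0.631).

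Without the 8 arrays numbered 3, leaving 2 arrays a group, 6 of the 9 members passed with Control-768, against 27% of all genes. Mdm2 (0.73), Cdkn1a (0.56, adjusted p = 0.00183), Pmaip1 (0.91, adjusted p = 0.00325) and Phlda3 (0.53, adjusted p = 0.0289) rose. Sesn1 (-1.35) and Trp53inp1 (-0.57) fell. Bbc3 was at -0.46 there (adjusted p = 0.181). The calls for Sesn1, Mdm2 and Trp53inp1 were thus made with and without the arrays numbered 3, while Cdkn1a, Pmaip1 and Phlda3 passed without them and not with all 24 arrays weighted equally.

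**Figure D3:**
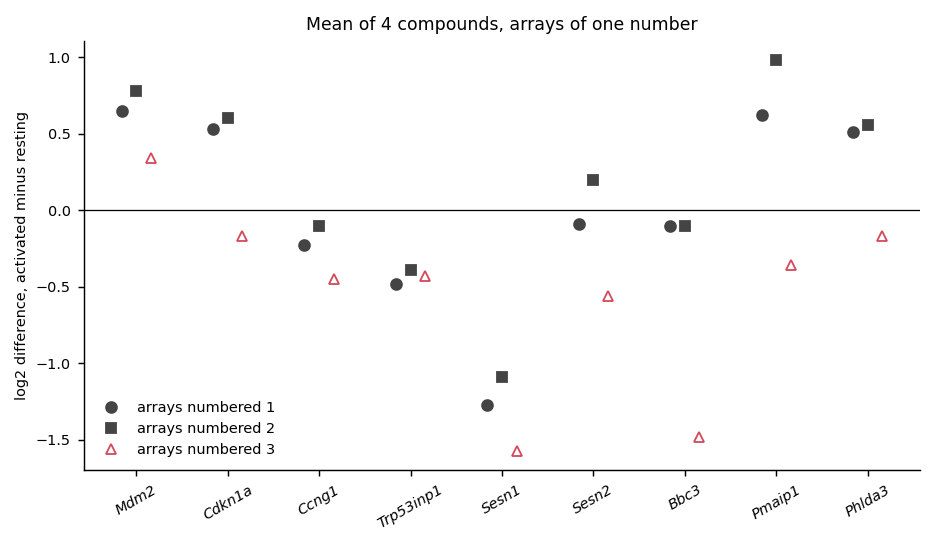
Activated minus resting (log2, mean over the 4 compounds) among the arrays of each replicate number, for each member. Pairing of arrays across states by number was not established, so each point sets arrays known to share only a number side by side. Numbers 1 and 2 lie above 0 and number 3 below it for Cdkn1a, Pmaip1 and Phlda3, and number 3 lies lowest for Bbc3 (-1.48).

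Averaged over the 4 compounds, 12 arrays against 12, 6 of 9 members passed, against 43% of all genes. Mdm2 (0.59) and Cdkn1a (0.32) rose, and Sesn1 (-1.31), Bbc3 (-0.56), Trp53inp1 (-0.43) and Ccng1 (-0.26) fell. The other 2 Ccng1 probe sets read -0.20 and -0.19 without passing (adjusted p = 0.153 and 0.118 over all probe sets). Arrays of one number within a state deviate together, and with that set as a random block 4 of 9 passed, against 33.7% of all genes. Ccng1 (adjusted p = 0.0633) and Bbc3 (adjusted p = 0.0565) were then lost. Without the 8 arrays numbered 3, 7 of 9 passed, 4 higher and 3 lower, against 43.4% of all genes: Pmaip1 (0.80) and Phlda3 (0.53) joined, and Bbc3 was at -0.10 (adjusted p = 0.546). The call for Bbc3 was also lost on leaving out any 1 of 5 arrays numbered 3, namely those of resting cells with each of the 4 compounds and of activated cells with DMSO (adjusted p from 0.05 to 0.0519), and with array weights (-0.23, adjusted p = 0.202).

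I-BET-762 raised Trp53inp1, and no other member passed the test with all 24 arrays and no replicate block. At 0.5 µM in activated cells Trp53inp1 rose 1.53-fold and was the only 1 of 9 members called, against 0.748% of all genes. None of 9 was called at 0.5 µM in resting cells (1.39% of all genes), at 0.25 µM in activated cells (0.0715%) or at 0.25 µM in resting cells (0.066%). At an unadjusted p under 0.05 in the same limma fits, these 3 comparisons held 1, 1 and 0 members, Trp53inp1 each time. The shares of all genes at that level were 10.7%, 4% and 4.16%. The median log2 difference of the members lay between 0.07 and 0.27 in the 4 comparisons, and that of all genes between 0 and 0.01. All 9 members lay above 0 at 0.25 µM in activated cells, 8 at 0.5 µM there, and 7 and 6 in resting cells at the lower and higher concentration. Of all 18193 genes 9540, 9159, 8891 and 8965 did, in the same order. The members were read on the same arrays and several correlate with each other, so their signs are not independent of each other. The intervals of Bbc3 and Pmaip1 at 0.25 µM in activated cells ran from -0.18 to 1.45 and from -0.41 to 1.22, so sizable differences were neither shown nor excluded for them.

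In activated cells Trp53inp1 read 3051, 3129 and 3845 with Control-768 (3342 ± 437, SD, n = 3), 3894, 4079 and 4678 with 0.25 µM I-BET-762 (4217 ± 410) and 4912, 5000 and 5330 with 0.5 µM (5080 ± 220). In resting cells it read 4650, 4560 and 5248 with Control-768 (4819 ± 374), 5136, 4842 and 5601 with 0.25 µM (5193 ± 383) and 5949, 5975 and 7112 with 0.5 µM (6345 ± 665). Within each replicate number and state it was higher at each step. The activated groups did not overlap with the control at either concentration, and the resting group did not at 0.5 µM.

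In activated cells the log2 difference from Control-768 was 0.61 ± 0.12 (SE) at 0.5 µM (adjusted p = 0.0159) and 0.34 at 0.25 µM (adjusted p = 0.986). In resting cells it was 0.39 at 0.5 µM (adjusted p = 0.144) and 0.11 at 0.25 µM (adjusted p = 1). Replicate numbers pair the arrays within a state. With the number as a replicate block within each state, Trp53inp1 was also called at 0.25 µM in activated cells (adjusted p = 0.046) and at 0.5 µM in resting cells (adjusted p = 0.00231), 1 of 9 members in each, and at 0.5 µM in activated cells the adjusted p was 6.59e-05. These blocked fits called 0.396%, 5.54% and 3.37% of all genes, and at 0.25 µM in resting cells 0.533%, with no member among them (0 of 9 also at an unadjusted p under 0.05, against 7.63% of all genes). With state and number as a random block at the estimated correlation, Trp53inp1 was lost at 0.25 µM in activated cells (adjusted p = 0.2), where the fixed block was the one alternative that called it, and passed at 0.5 µM in resting cells (adjusted p = 0.0147).

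Against DMSO in place of Control-768, Trp53inp1 rose by 0.69 at 0.5 µM in activated cells (adjusted p = 0.00503). The call against Control-768 was lost without the activated Control-768 array numbered 1 (adjusted p = 0.12) or 2 (adjusted p = 0.0928), and without the activated 0.5 µM array numbered 3 (adjusted p = 0.0606), at differences of 0.55 to 0.57. It was lost too when only the 2 groups compared were fitted (adjusted p = 0.272) and with the mean of both Trp53inp1 probe sets (0.83, adjusted p = 0.34). A second Trp53inp1 probe set, with a mean intensity of 179, read 62.7, 80.5 and 145 with Control-768 and 157, 223 and 246 with 0.5 µM I-BET-762 in activated cells. Its difference had the same sign, at 1.05 ± 0.50 (SE), without passing the test (adjusted p = 0.684 over all probe sets).

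**Figure D4:**
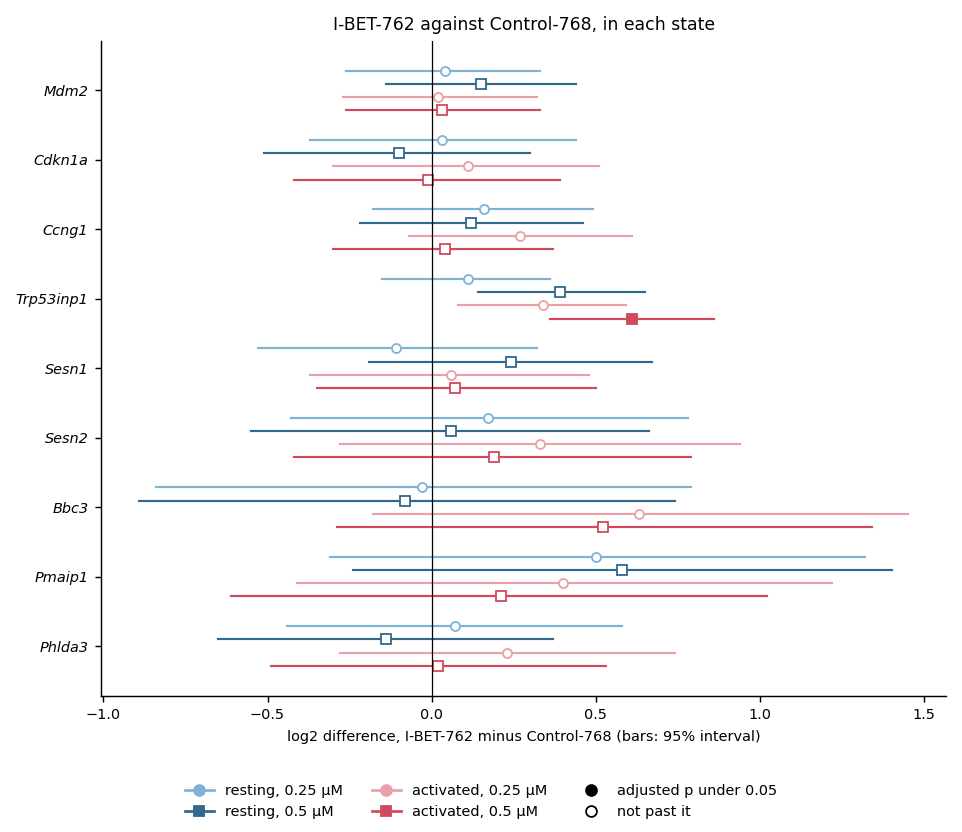
Difference between I-BET-762 and Control-768 for each member (log2, with its 95% interval) at 0.25 µM and 0.5 µM in resting (blue) and activated (red) cells, filled where the adjusted p is under 0.05. Trp53inp1 in activated cells at 0.5 µM (0.61) is the filled point, and the intervals of Mdm2 and Cdkn1a cross 0 in all 4 comparisons.

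Mdm2 and Cdkn1a gave no call for I-BET-762 in either state. Mdm2 read 3791, 3462 and 3202 with Control-768 and 3943, 4059 and 2821 with 0.5 µM in activated cells, at 0.03 (95% interval -0.26 to 0.33). In resting cells it was at 0.15 (-0.14 to 0.44). Cdkn1a read 7738, 6902 and 5403 with Control-768 and 7548, 7817 and 4750 with 0.5 µM in activated cells, at -0.01 (95% interval -0.42 to 0.39), and in resting cells it was at -0.10 (-0.51 to 0.30). In both genes the arrays of the groups overlapped. Sesn1 lay at 0.07 (-0.35 to 0.50) in activated and 0.24 (-0.19 to 0.67) in resting cells at 0.5 µM, the latter carried by the array at 1545: the other numbers differed from their Control-768 arrays by -0.16 and -0.14. Ccng1 was at 0.04 in activated and 0.12 in resting cells, Sesn2 at 0.19 and 0.06, and Phlda3 at 0.02 and -0.14, none of them called.

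Pmaip1, the Noxa gene, gave the widest spread. In resting cells it read 1988, 1371 and 3981 with Control-768, 2857, 2289 and 4772 with 0.25 µM and 3610, 3171 and 3193 with 0.5 µM I-BET-762. In activated cells it read 3176, 3075 and 3395, then 4569, 4109 and 4083, then 5053, 5435 and 1857. At 0.25 µM every array was above the Control-768 array of its number. At 0.5 µM those numbered 1 and 2 were higher still, and those numbered 3 lay below their Control-768 array, at -0.32 in resting and -0.86 in activated cells (log2). Over 3 arrays a group the difference at 0.5 µM was 0.58 in resting (95% interval -0.24 to 1.40) and 0.21 in activated cells (-0.61 to 1.02). Without the 8 arrays numbered 3, Pmaip1 rose 2.04-fold in resting cells at 0.5 µM (log2 difference 1.03 ± 0.18, adjusted p = 0.00943). There Trp53inp1 rose too (0.37, adjusted p = 0.0212), 2 of 9 members against 4.07% of all genes.

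**Figure D5:**
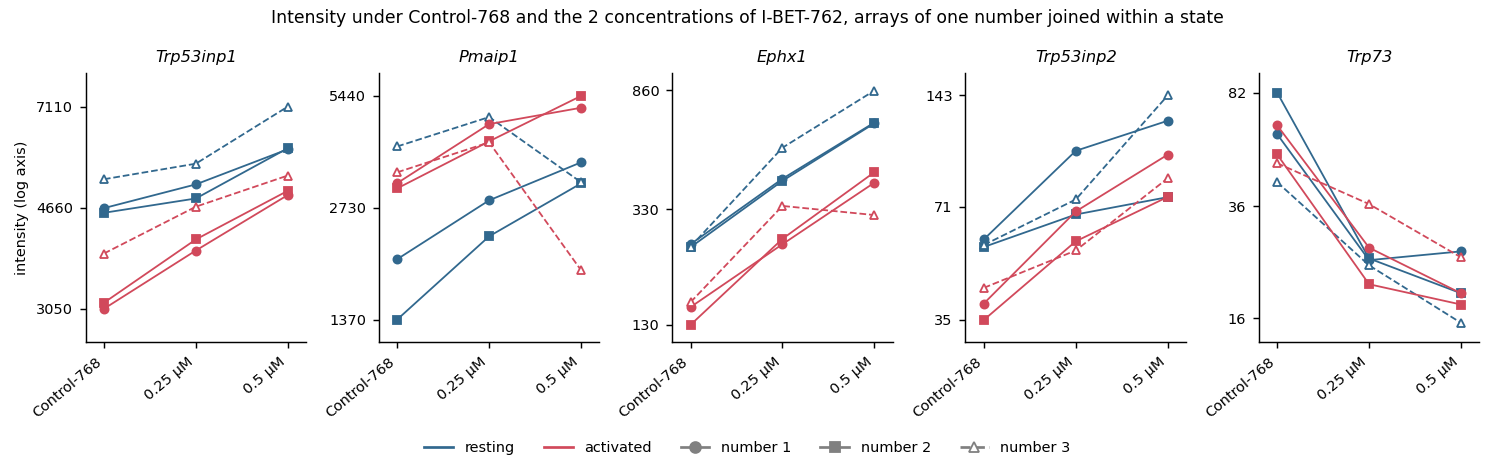
Intensity (log axis) with Control-768, 0.25 µM and 0.5 µM I-BET-762 of Trp53inp1 and Pmaip1 and of Ephx1, Trp53inp2 and Trp73, with lines joining arrays of one number within a state (blue resting, red activated, dashed number 3). All 6 lines of Trp53inp1 and Trp53inp2 rise at both steps, those of Trp73 lie lower at 0.5 µM than with Control-768, and the 2 dashed lines of Pmaip1 turn down at 0.5 µM.

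With both concentrations set against both controls, 6 arrays against 6, Trp53inp1 rose by 0.51 in activated cells (adjusted p = 0.00244), 1 of 9 members against 1.19% of all genes. In resting cells it was at 0.26 (adjusted p = 0.177), and none of 9 was called against 1.85% of all genes, with 2 of 9 at an unadjusted p under 0.05, Trp53inp1 and Pmaip1, against 10.2% of all genes. With the mean of both probe sets the call in activated cells was lost (0.65, adjusted p = 0.199). Blocked by number within the state, Trp53inp1 passed in resting cells (adjusted p = 0.00335; 1 of 9, against 5.68% of all genes). In activated cells the blocked fit called Trp53inp1 and Bbc3 (0.61, adjusted p = 0.0149), 2 of 9 against 4.19% of all genes. No other alternative called Bbc3 there, and with the random block of state and number its adjusted p was 0.122. Bbc3 read 269, 430 and 197 with DMSO and 261, 344 and 292 with Control-768 in activated cells, and 437, 465 and 508 with 0.25 µM and 527, 464 and 333 with 0.5 µM I-BET-762. The control and the inhibitor arrays overlapped, and within each number every inhibitor array was above both controls. In resting cells Bbc3 was at -0.06. Without the 8 arrays numbered 3 the pooled comparison called Trp53inp1 and Pmaip1 in both states: Pmaip1 was at 0.87 in resting (adjusted p = 0.00264) and 0.65 in activated cells (adjusted p = 0.0172). These were 2 of 9 members in each state, against 5.62% and 4.28% of all genes.

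The step from 0.25 µM to 0.5 µM called no member. The whole-array share was 0.066% in resting and 0.011% in activated cells, and Trp53inp1 was the 1 member of 9 at an unadjusted p under 0.05 in each state, at 0.29 and 0.27 (adjusted p = 0.664 and 1). The shares of all genes at that unadjusted level were 7.2% and 3.78%. Control-768 against DMSO called none of 9 members in either state, and 0% of all genes. No member had an unadjusted p under 0.05 there, against 2.36% of all genes in resting and 1.63% in activated cells. The 95% interval was widest for Pmaip1, at 0.10 (-0.71 to 0.92) in resting cells. Whether I-BET-762 acted differently in the 2 states was tested as an interaction. None of the 9 members and 0% of all genes were called at either concentration or with both pooled, and no member had an unadjusted p under 0.05. The shares of all genes at that unadjusted level were 2.35% at 0.25 µM, 3.58% at 0.5 µM and 3.85% pooled. For Trp53inp1 the pooled effect was 0.25 larger in activated cells (95% interval 0 to 0.50, unadjusted p = 0.0528, adjusted p = 1).

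Among 33 other known p53 targets, 29 were measured. With Control-768, 5 of them rose and 5 fell on restimulation, 10 of 29 where 20.1% of all genes were called, with a median of -0.10 against -0.03 over all genes. Ddb2, a DNA damage recognition protein, fell by 1.29 (adjusted p = 1e-05), Sertad1, a cell-cycle coactivator, by 1.08 and Ephx1, a microsomal epoxide hydrolase, by 0.70. Plk3, a stress kinase, rose by 1.99 (adjusted p = 0.00363). With I-BET-762 Ephx1 was the only 1 of 29 called in each of the 4 comparisons with Control-768. Of all genes 0.066% at 0.25 µM and 1.39% at 0.5 µM were called in resting cells, and 0.0715% and 0.748% in activated cells. In resting cells Ephx1 read 249, 243 and 244 with Control-768, 422, 415 and 542 with 0.25 µM and 664, 660 and 859 with 0.5 µM. In activated cells it read 150, 130 and 156, then 249, 260 and 339, then 409, 445 and 315. No inhibitor array overlapped with its control group. Ephx1 rose 2.82-fold at 0.5 µM in resting cells (1.5 ± 0.14, adjusted p = 5.51e-06) and 2.50-fold in activated cells (1.32 ± 0.14, adjusted p = 3.81e-05). With the replicate block within each state, 3 of 29 were called at 0.5 µM in resting cells, Tigar (0.63, adjusted p = 0.0171), a regulator of glycolysis, and Ppm1d (0.40, adjusted p = 0.0394), a phosphatase that acts on p53, joining Ephx1. That fit called 5.54% of all genes.

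Of 25 listed regulators of p53, 24 were measured, and with Control-768 2 rose and 4 fell on restimulation, 6 of 24 against 20.1% of all genes, a share near the background. Ppp1r13l, the inhibitor iASPP, fell by 1.69 (adjusted p = 8.26e-05), and the DNA damage kinases Prkdc by 1.29 and Chek2 by 1. Sirt1, a deacetylase that acts on p53, rose by 0.34. None of the 24 was called for I-BET-762 at 0.5 µM in either state, with 1 in resting and 0 in activated cells at an unadjusted p under 0.05 in the limma fit. Of all genes 10.7% and 7.96% lay at that level. With the replicate block 1 of 24 was called lower in each state, Hipk2, a kinase that phosphorylates p53, at -1.10 in resting (adjusted p = 4.4e-05) and -0.68 in activated cells (adjusted p = 0.00543). Those fits called 5.54% and 3.37% of all genes, so 1 of 24 is near the background. With the random block Hipk2 passed in resting cells (adjusted p = 0.0103) and no regulator passed in activated cells.

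Of 15 relatives of the members, all measured, 1 rose and 3 fell on restimulation with Control-768, 4 of 15 against 20.1% of all genes, again near the background. Ccng2, the cyclin G related to Ccng1, fell by 3.07 (adjusted p = 0.000284), and Cdkn1b, the p27 inhibitor related to p21, fell by 2.46 (adjusted p = 0.000503). Phlda1, related to Phlda3, rose by 2.81 (adjusted p = 0.000135). With I-BET-762 2 of 15 relatives were called at 0.5 µM, the same pair in both states, against 1.39% of all genes in resting and 0.748% in activated cells. Trp53inp2, the autophagy protein related to Trp53inp1, read 57.9, 55.2 and 55.9 with Control-768 and 122, 75.5 and 143 with 0.5 µM in resting cells, and 38.7, 34.9 and 42.7 against 98.6, 75.6 and 85 in activated cells. It rose by 0.80 in resting (adjusted p = 0.0218) and 0.90 in activated cells (adjusted p = 0.014), without overlap. Trp73, a p53 family member, read 60.7, 82 and 42.9 with Control-768 and 26, 19.2 and 15.5 with 0.5 µM in resting cells, and 64.7, 52.4 and 49.2 against 19.2, 17.7 and 24.9 in activated cells. It fell by 1.08 in resting (adjusted p = 0.00731) and 0.96 in activated cells (adjusted p = 0.0272), from a low level at which the added constant understates the change. With the replicate block 4 of 15 relatives were called in resting and 3 in activated cells at 0.5 µM, against 5.54% and 3.37% of all genes: Phlda1 joined in both (1.46 and 0.81, adjusted p = 0.000245 and 0.0342) and Bcl2l11, the death gene of Bim, in resting cells (1.2, adjusted p = 0.017). At 0.25 µM in resting cells Trp73 was called with that block (-0.92, adjusted p = 0.0118).

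Of 20 cell-cycle genes that p53 and p21 are known to lower, 19 were measured. With Control-768, 11 fell and none rose on restimulation, against 20.1% of all genes called, with a median of -0.65. Bub1 fell by 0.99, Bub1b by 1.01, Aurkb by 0.85 and Nek2 by 0.97, all of them genes of chromosome segregation. At 0.5 µM I-BET-762 none of the 19 was called in either state, and 5 in activated and 0 in resting cells had an unadjusted p under 0.05 in the limma fit. Of all genes 7.96% in activated and 10.7% in resting cells did. In activated cells 0 of the 19 lay above 0, with a median of -0.34, where 9159 of 18193 genes did and the median was 0. In resting cells 6 of the 19 lay above 0, with a median of -0.06. The signs of these genes are not independent of each other. Of 13 genes of quiescence and FOXO control, 11 were measured, and 6 fell and none rose on restimulation with Control-768, against the same 20.1%. Pik3ip1, a brake on PI3 kinase, fell by 3.18 (adjusted p = 3.13e-05), Klf2, a factor of quiescence and migration, fell by 3.16, and Rbl2 fell by 1.3. At 0.5 µM none of the 11 was called, with 2 in resting and 3 in activated cells at an unadjusted p under 0.05, against 10.7% and 7.96% of all genes.

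The replicate block within each state also called members of these last lists at 0.5 µM. Of all genes it called 5.54% in resting and 3.37% in activated cells. Of the cell-cycle genes 1 of 19 was called, Aurka in activated cells (-0.59, adjusted p = 0.0423), a share near the background. Of the quiescence genes 2 of 11 were called in resting cells, Foxo1 (0.55, adjusted p = 0.0132) and Btg1 (0.47, adjusted p = 0.0208). In activated cells 3 of 11 were called, Foxo1 (0.52) and Klf2 (1.24) higher and Il7r, the interleukin-7 receptor, lower (-1.64, adjusted p = 0.0102). Cell markers moved in the same blocked comparisons: the T-cell markers Cd3e (0.45) and Cd3g (0.36) rose and Cd5 (-0.61) fell in resting cells, and in activated cells Cd3g (0.34) rose and the dendritic-cell markers Cd74 (-0.81) and H2-Ab1 (-0.71) fell. The part of these markers in the results was not tested. The genes called with a block alone were named after their values were seen.

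Across the 24 arrays, which share the states, the compounds and the replicate numbers, the members fell into loose groups. Cdkn1a correlated at 0.89 with Phlda3, at 0.78 with Mdm2 and at 0.75 with Pmaip1. Mdm2 and Sesn1 ran opposite, at -0.77, and Sesn1 and Sesn2 correlated at 0.28. For the 3 members whose group means spanned at least 1 log2 unit, the genes most like them were sought among 9360 genes with a mean intensity of at least 64. For Sesn1 these were Nckap1l (Pearson 0.99), Rnf166 (0.984) and Nemp2 (0.982). For Trp53inp1 they were Pip4k2a (0.943), Ms4a4b (0.939) and Ctsb (0.926), and for Pmaip1 they were Ddias (0.842), Cldnd1 (0.819) and Mlf1 (0.818).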

How the data were processed

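RNA of 24 cultures was extracted, amplified in 2 rounds, biotin-labelled and hybridised to one array each, per the labels' protocols. The deposited values are linear intensities of 45101 probe sets; the summarization and scaling behind them are not given in the sources used here. Probe sets were named from the platform annotation: 34945 carry 1 symbol, 932 several and 9160 none. The brightest single-symbol probe set stood for each of 18193 genes. Fits used limma 3.58.1 (R 4.3.3) on log2(intensity + 16), 8 group means and all 24 arrays (16 residual degrees of freedom), with Benjamini-Hochberg adjustment over all genes and a threshold of 0.05, in 18 comparisons. Differences are on that scale, which understates those of dim genes. The number of arrays limits precision: the median half-width of a 95% interval was 0.392 for 3 arrays against 3. The model was tested on simulated data with independent noise on each array. Those data lack the shared deviations of same-numbered arrays, described next, and the wider spread of arrays numbered 3, so the test does not cover them.

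Same-numbered arrays within a state deviated together (correlations of deviations 0.2 to 0.7 over 18 resting pairs and 0.16 to 0.56 over 18 activated pairs). Across states same-numbered arrays gave -0.05 to 0.19 and other arrays -0.17 to 0.12, so pairing across states was not established. The pairing within states comes from this check, not from the labels. Alternatives varied the constant, scaling, probe set, filter, block, weights, control and arrays; the random block was added after seeing the data. Named genes were every member, up to 4 genes per list and comparison with the smallest adjusted p, and the 3 most similar genes. Members and lists were chosen with earlier results of these data known.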

Additional observations from a re-analysis of the deposited data

How the results depend on the processing

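The number of members called per comparison moved by over 1.5 times under these alternatives. With only the groups compared in the fit, activated against resting at 0.5 µM called 1 member and 0.5 µM in activated cells called 0. With the mean of all probe sets, 0.5 µM and both concentrations in activated cells called 0 each. Without probe sets with the suffixes _x_at, _s_at and _a_at, activated against resting at 0.25 µM called 1. Both bright Mdm2 probe sets end in _a_at. Mdm2 was then read on its remaining probe set, at a mean intensity of 11 (0.11, adjusted p = 0.757). With the replicate block within each state, activated against resting called 4 at 0.25 µM and 5 at 0.5 µM. Of all 18193 genes that fit called 4908 and 6102, against 2635 and 4238 in the main fit. That block does not pair arrays across states. The comparisons within a state called 1 for 0.5 µM resting, 1 for 0.25 µM activated, 1 for both concentrations resting and 2 for both activated. Of all genes they called 5.54%, 0.396%, 5.68% and 4.19%, in the same order. The replicate block over both states and the random block of state and number each called 1 for 0.5 µM resting and 1 for both concentrations resting. Array weights gave 5, 5, 4 and 4 for activated against resting (Control-768, DMSO, 0.25 µM, 0.5 µM), 1 for 0.5 µM resting and 2 for both resting. Of all genes they called 5678 for state with Control-768 and 5825 with DMSO, against 3651 and 3799 in the main fit. Without the 8 arrays numbered 3 the 4 state comparisons called 6 each, and 0.5 µM resting, both resting and both activated 2 each. Of all genes 27% were called there for state with Control-768. For 0.5 µM resting, both resting and both activated the shares were 4.07%, 5.62% and 4.28%. Leaving out 1 replicate gave 0 to 1 for 0.5 µM activated. No other count of members moved so far.

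The dim Sesn1 probe set reversed its state difference: 0.36 (Control-768), 0.20 (DMSO), 0.38 (0.25 µM), 0.29 (0.5 µM) and 0.31 over all compounds. The reversal passed the threshold over all compounds (adjusted p = 0.00122) and under no single compound. The cause was not tested. Counts over all genes ranged from 2371 to 5678 for Control-768, 2567 to 5825 for DMSO, 1380 to 4908 at 0.25 µM and 1228 to 6102 at 0.5 µM for state. For I-BET-762 at 0.5 µM they ranged from 29 to 1007 in resting and 34 to 613 in activated cells, at 0.25 µM from 0 to 97 and 0 to 72, and with both concentrations from 227 to 1033 and 134 to 778. For the step between concentrations they ranged from 0 to 211 and 0 to 36. With the replicate block within each state the interactions reached 15 with both concentrations pooled and 3 at 0.5 µM. Control-768 against DMSO called 0 genes with that block and at most 1 under the other alternatives. Dim probe sets, of which the members have 2, limit what can be read.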
